A study of Homo sapiens with 6 samples.

Results

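The genes described here lie on the long arm of chromosome 7, from 100 Mb to the distal end. They were chosen by position and level, as the rows of the gene count table that start above 100 Mb on chromosome 7 and have a mean of at least 1 CPM (counts scaled to a common library total) over the 6 libraries. These are 268 genes of 12839 that reach this level anywhere in the genome, in a table of 61541 rows. The table lists 1240 genes on this stretch of chromosome 7, of which 506 had a count and 734 were at 0 in every library. Of the 268 members, 229 are protein coding and 39 have another biotype or none.

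The libraries come from 2 human breast cancer cell lines profiled by bulk RNA-seq. MDA-MB-231 is a triple-negative, mesenchymal-like line, here called parental (3 libraries). The other line, MDA-MB-231-D3H2LN or MDA231-LN for short (3 libraries), is a luciferase-carrying derivative that was recovered from a lymph node metastasis. Both lines grew in the same high-glucose medium with 10% serum and without a further treatment. Each condition is 1 cell line, and the labels do not say whether the libraries of a line are separate cultures, so the p-values below measure the spread between these libraries, which may be technical. The region itself was selected on the log2 fold changes between the lines, which were already known, so its overall shift, its medians and its edges are given as a description, with no test.

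The long arm of chromosome 7 carries a mixed set of genes. They include the receptor tyrosine kinase gene MET beside the caveolin genes, the kinase gene BRAF, the histone methyltransferase gene EZH2, a cluster of zinc finger genes and the T cell receptor beta locus. Neighbouring genes on a chromosome can share both their chromatin environment and their number of DNA copies, and neither was measured in these libraries.

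Promoter sequences of 6 members are given first, because the results turn on these genes. SND1 and RBM28 are neighbours on the 2 sides of an abrupt step along the region, PIK3CG and PTN stood far above their surroundings, and AASS and AGFG2 far below. Each is the 250 bases before the RefSeq start of the gene (GRCh38.p14), 5′ to 3′ on the gene's own strand, with each CG dinucleotide in capitals. The genes were chosen for display after their values were seen. For PIK3CG, PTN and AASS the RefSeq start lies inside the Ensembl gene used for counting, so these sequences overlap the counted gene.
SND1, chr7:127651944-127652193, plus strand: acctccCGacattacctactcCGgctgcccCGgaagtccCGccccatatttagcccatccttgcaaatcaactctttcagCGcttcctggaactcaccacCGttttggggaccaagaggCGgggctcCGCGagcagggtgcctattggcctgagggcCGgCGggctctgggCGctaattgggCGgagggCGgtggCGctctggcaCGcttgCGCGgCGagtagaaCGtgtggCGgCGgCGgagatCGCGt
RBM28, chr7:128343909-128344158, minus strand: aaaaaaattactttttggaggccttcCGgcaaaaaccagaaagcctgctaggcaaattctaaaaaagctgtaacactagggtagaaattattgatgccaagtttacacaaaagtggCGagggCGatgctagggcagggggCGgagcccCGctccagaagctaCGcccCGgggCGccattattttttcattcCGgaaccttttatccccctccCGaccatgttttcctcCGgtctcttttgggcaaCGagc
PIK3CG, chr7:106865229-106865478, plus strand: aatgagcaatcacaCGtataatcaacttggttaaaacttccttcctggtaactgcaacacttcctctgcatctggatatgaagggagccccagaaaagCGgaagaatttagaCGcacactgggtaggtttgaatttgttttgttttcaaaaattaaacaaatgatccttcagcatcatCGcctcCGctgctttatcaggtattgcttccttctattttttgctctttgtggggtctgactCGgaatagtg
PTN, chr7:137343734-137343983, minus strand: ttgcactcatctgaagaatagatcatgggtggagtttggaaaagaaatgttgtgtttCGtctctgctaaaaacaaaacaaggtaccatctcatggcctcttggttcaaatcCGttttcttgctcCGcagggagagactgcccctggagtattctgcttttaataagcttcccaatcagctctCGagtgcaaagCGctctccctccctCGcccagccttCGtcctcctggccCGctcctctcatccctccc
AASS, chr7:122144250-122144499, minus strand: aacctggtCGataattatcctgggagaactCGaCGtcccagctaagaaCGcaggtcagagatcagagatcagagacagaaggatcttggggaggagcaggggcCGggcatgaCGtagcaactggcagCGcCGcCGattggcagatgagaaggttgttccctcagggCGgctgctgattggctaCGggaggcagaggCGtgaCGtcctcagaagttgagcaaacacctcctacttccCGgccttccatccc
AGFG2, chr7:100538953-100539202, plus strand: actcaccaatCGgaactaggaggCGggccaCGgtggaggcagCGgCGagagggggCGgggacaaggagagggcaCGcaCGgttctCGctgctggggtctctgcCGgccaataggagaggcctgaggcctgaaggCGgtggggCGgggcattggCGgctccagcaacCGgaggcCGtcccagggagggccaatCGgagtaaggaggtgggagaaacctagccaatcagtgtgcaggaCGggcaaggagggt
The motif searched was CG, which reads the same on both strands. SND1 holds 25 such dinucleotides, and 20.6% of the 22114 promoters in the RefSeq table hold as many or more. AGFG2 holds 17 (37.5% of promoters), AASS 14 (43.2%), RBM28 12 (46.5%), PTN 8 (53.6%) and PIK3CG 6 (59.2%). Among the 148 members with a single listed start, the median was 12 for the 17 genes at least 2-fold above the median of their stretch, 15.5 for the 8 genes at least 2-fold below it and 24 for the other 123. The median over all promoters in the table was 9.

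Depth was similar across libraries, with 16461578 to 19171017 counts per parental library and 17661542 to 18882719 per MDA231-LN library. The 6 markers expected in the line summed to 5080 to 5204 CPM in the parental libraries and 4990 to 5222 CPM in MDA231-LN, but single markers differed in opposite directions. Means in the parental line and MDA231-LN were 1091 and 1993 CPM for VIM, 525 and 994 CPM for CD44, 1788 and 715 CPM for MSN, and 632 and 328 CPM for EGFR. Among the markers expected to be low, ERBB2 and GATA3 went against the expectation. Their means in the parental line and MDA231-LN were 90.4 and 89.8 CPM for ERBB2 and 19.8 and 17.4 CPM for GATA3. ESR1, PGR and CDH1, from the same list, had means under 1 CPM in both lines. The 4 leukocyte markers summed to 1.16 to 2.66 CPM and 0.977 to 2.3 CPM, with CD3E at 0 counts. The 3 endothelial markers summed to 7.73 to 11.6 CPM and 8.76 to 8.95 CPM. The 4 fibroblast markers summed to 9.19 to 14.6 CPM and 14.0 to 18.7 CPM, with PDGFRA at 0 counts. In bulk RNA, fewer cells with a transcript and less RNA per cell cannot be told apart.

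Most members were higher in MDA231-LN. The median log2 fold change (MDA231-LN minus parental) over the 268 members was 0.67, a 1.59-fold higher level, with an interquartile range from 0.08 to 1.16. Relative to the parental mean, the median over members was -0.011, 0.022 and 0.0042 across the parental libraries, against 0.64, 0.60 and 0.60 across those of MDA231-LN, on the log2(CPM + 0.5) scale. The lines did not overlap. Under the edgeR quasi-likelihood test, 175 members were higher at an adjusted p under 0.05, beside 31.6% of all 14176 genes tested. Another 26 members were lower, beside 31.2% of all genes tested, and 67 did not pass. At a change of at least 2-fold, 75 members were higher and 8 lower, beside 13.0% and 7.53% of all genes tested. Because the region was selected on the same log2 fold changes, these counts describe it and nothing is read from their difference to the genome. Over the 12839 genes at 1 CPM or more, the median log2 fold change was -0.01. The members include 27 genes whose parental mean was under 1 CPM and 4 whose MDA231-LN mean was under 1 CPM, which entered through the line where they are higher.

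The same chromosome was lower in MDA231-LN between 30 and 60 Mb. The 87 genes there had a median log2 fold change of -0.67, a 1.59-fold lower level, with an interquartile range from -0.87 to -0.32. Of these genes 68 were lower under the edgeR test, beside 31.2% of all genes tested, 3 were higher, beside 31.6%, and 16 did not pass. Their median in the MDA231-LN libraries was -0.65, -0.62 and -0.62 relative to the parental mean. The medians of the 2 sets differed by 1.34 on the log2 scale.

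**Figure D1:**
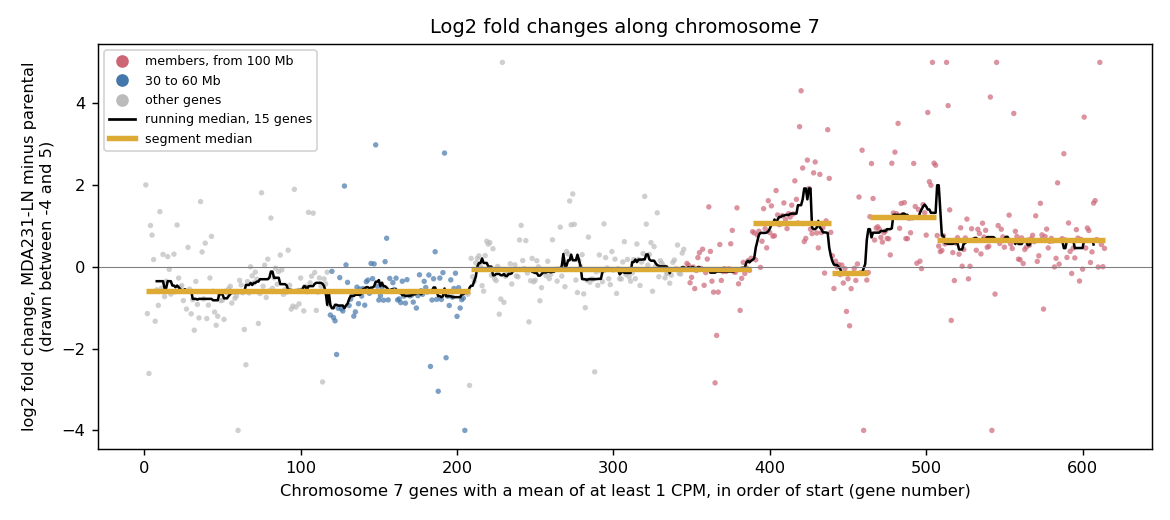
Log2 fold change of each chromosome 7 gene with a mean of at least 1 CPM, in order of start along the chromosome; points are genes (red, the 268 members; blue, 30 to 60 Mb), the black line is the running median of 15 genes and the yellow bars are segment medians. The members form 2 raised stretches with medians of 1.07 and 1.23, separated by a stretch at -0.15, and a distal stretch at 0.65.

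The shift was not uniform along the region. A segmentation of chromosome 7 into 5 pieces of at least 20 genes, by least absolute deviations, placed edges at 64.7, 101.3, 116.2 and 128.3 Mb. A sixth piece, added after the running medians were seen, placed another at 135.1 Mb. The members therefore fall into 5 stretches, called here the proximal edge, the first raised stretch, the middle stretch, the second raised stretch and the distal stretch.

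The proximal edge, from 100 to 101.3 Mb, holds 42 members with a median log2 fold change of -0.07, of which 5 were higher and 13 lower. It continues the level of the 180 genes from 64.7 to 101.3 Mb, whose median was -0.06. The first raised stretch, 101.3 to 114.9 Mb, holds 51 members with a median of 1.07, a 2.10-fold higher level, of which 46 were higher and 0 lower under edgeR, also 0 lower at an unadjusted p under 0.05, by DESeq2 and by limma-voom. The middle stretch, 116.2 to 127.7 Mb, holds 24 members with a median of -0.15, of which 3 were higher and 8 lower. The share lower in the proximal edge and the middle stretch is near the 31.2% of all genes tested. Of all genes tested, 31.6% were higher. The stretches were cut on these same log2 fold changes, so their counts are a description.

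The second raised stretch, 128.3 to 135.0 Mb, holds 43 members with a median of 1.23, a 2.34-fold higher level, of which 38 were higher and 0 lower under edgeR, with 0 lower at an unadjusted p under 0.05 and by the other tools as well. The distal stretch, 135.1 to 158.9 Mb, holds 108 members with a median of 0.65, a 1.57-fold higher level, of which 83 were higher and 5 lower. Beside these stretches, 31.6% of all genes tested were higher and 31.2% lower. The raised stretches and the distal stretch were separate from the parental libraries in all 3 MDA231-LN libraries. The first raised stretch lay at 1.01, 1.08 and 1.07, the second at 1.17, 1.25 and 1.14 and the distal stretch at 0.62, 0.59 and 0.57 on the relative log2(CPM + 0.5) scale, while the parental libraries lay within -0.05 and 0.03.

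**Figure D2:**
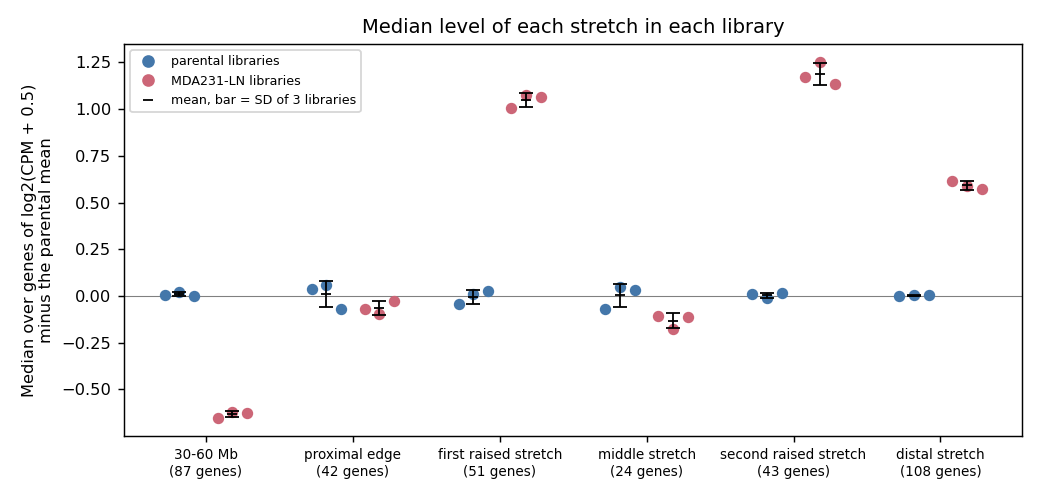
Median over the genes of each stretch, in each library, of log2(CPM + 0.5) minus the parental mean; points are libraries (blue, parental; red, MDA231-LN), and black bars are the mean and SD of 3 libraries. The MDA231-LN libraries lie above the parental ones in both raised stretches and the distal stretch, below them at 30 to 60 Mb, and near 0 in the proximal edge.

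The edges were placed on the same log2 fold changes that are given here for single genes. The p-values of genes beside an edge therefore do not test that edge. The proximal limit of the raised region was followed by genes of mixed levels. CLDN15, a tight junction protein gene, and FIS1, a mitochondrial fission gene, are the last named members before it, with log2 fold changes of 0.15 and -0.09, and neither passed the edgeR test. IFT22, an intraflagellar transport gene, lies just beyond at 0.86 ± 0.18 (SE, edgeR adjusted p = 0.000128), although 34.7% of its exonic bases lie inside another gene. CUX1, a homeobox transcription factor gene, measured 95.4, 89.2 and 98.0 CPM in the parental libraries and 168, 169 and 166 CPM in MDA231-LN. It was higher in all 3 MDA231-LN libraries, with a log2 fold change of 0.83 ± 0.06 (edgeR adjusted p = 2.99e-12). Further genes in the same stretch were mixed: SH2B2, an adaptor gene, was at 0.17 and ORAI2, a calcium channel subunit gene, at -0.01, without passing the test. Between them in order of start lay SPDYE6 at 0.78, which did not pass, and PRKRIP1 at 0.87, which was higher under edgeR. ALKBH4 was at 0.63 and LRWD1, a replication origin factor gene, at 1.42, both higher under edgeR. SH2B2, ORAI2, PRKRIP1, ALKBH4 and LRWD1 were named after their values were seen.

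The edges at 116.2 and 128.3 Mb are given as a description that the p-values of the genes beside them do not test. Across the edge at 116.2 Mb the values of the named genes fell from gene to gene. At 128.3 Mb they stepped between neighbouring genes. FOXP2, a forkhead transcription factor gene, measured 1.58, 1.65 and 2.14 CPM in the parental line and 8.30, 8.43 and 7.56 CPM in MDA231-LN, a log2 fold change of 2.16 (edgeR adjusted p = 3.41e-09). MDFIC, a transcriptional modulator gene, followed at 0.84 (edgeR adjusted p = 6.49e-10). Beyond the edge TES, a focal adhesion gene, was at 0.27 and did not pass, but 92.8% of its exonic bases lie inside another gene and its counts are uncertain. CAV2, a caveolin gene, measured 128, 155 and 147 CPM against 97.1, 98.6 and 102 CPM and was lower in all 3 MDA231-LN libraries, at -0.53 (edgeR adjusted p = 1.19e-07).

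At the distal end of the middle stretch SND1, which encodes a nuclease domain protein of RNA processing, measured 251, 256 and 288 CPM in the parental libraries and 246, 230 and 246 CPM in MDA231-LN. Its log2 fold change was -0.14 (edgeR adjusted p = 0.0425), a call that was lost under 9 of the alternative settings. GCC1, a Golgi coiled-coil protein gene beside it, was at -0.32 (edgeR adjusted p = 0.00407), and with upper-quartile scaling at -0.21 without passing. RBM28, a ribosome biogenesis gene and the next member along, measured 59.6, 51.3 and 59.5 CPM in the parental line and 131, 135 and 133 CPM in MDA231-LN. The lines were far apart, with a log2 fold change of 1.23 (edgeR adjusted p = 1.64e-14). The segmentation placed the step between SND1, which ends at 128092609, and RBM28, a minus-strand gene whose nearer, 3′ end lies at 128297685 (GRCh38). It used these same log2 fold changes, so the p-values of these genes do not test the step. PRRT4, the next gene, was at 2.53 from a parental mean of 0.34 CPM.

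**Figure D3:**
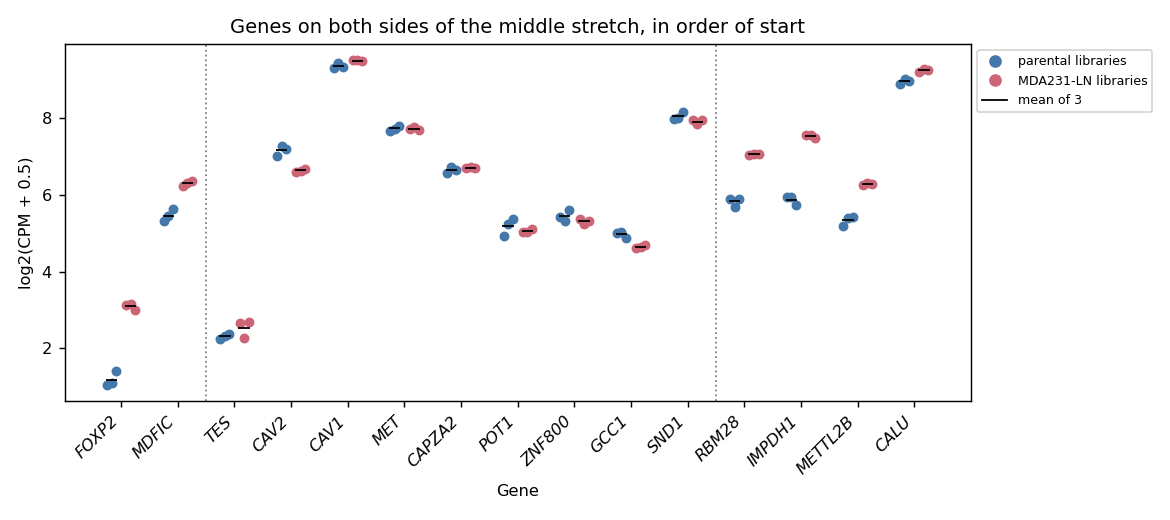
Level of 15 members around the middle stretch, in order of start, as log2(CPM + 0.5); points are libraries (blue, parental; red, MDA231-LN), black lines are means of 3 libraries and dotted lines are the edges. FOXP2 and MDFIC on one side and RBM28 and IMPDH1 on the other are higher in MDA231-LN, while MET and CAPZA2 between them overlap between the lines.

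Genes that depart from the regional shift were found by the same edgeR fit with the median of each 10-Mb window as an offset in the MDA231-LN libraries. The error of that median was not carried into the test. By this measure 67 members lay above their window and 104 below, 63.8% of members beside 52.5% of all genes tested. At least 2-fold, 32 lay above and 28 below, beside 11.9% and 5.15% of all genes tested. The 10-Mb windows cross the edges, so the same test was repeated against the median of the gene's own stretch, a choice made after the data were seen. Then 58 lay above and 77 below, 48 and 59 of them the same genes. Over all chromosome 7 genes at 1 CPM or more, 23.8% lay above and 27.5% below, so the members' shares are near those of the chromosome. At least 2-fold, 32 members lay above their stretch and 15 below it, against 28 below their window. The share of chromosome 7 genes at 2-fold from their stretch was not computed. Within 0.3 of their stretch median on the log2 scale lay 139 members (51.9%).

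Lowly expressed members varied more. The interquartile range of the departure from the stretch median was 1.10 for the 89 members with the lowest mean level (1.03 to 9.74 CPM), 0.50 for the 90 in between and 0.43 for the 89 with the highest. The median log2 fold change was 0.65 for the 139 genes on the plus strand and 0.69 for the 129 on the minus strand. It was 0.65 for protein-coding genes and 0.84 for the 39 other genes, which are not spread evenly over the stretches. Their median departures from the stretch median were -0.002 and 0.12, with interquartile ranges from -0.28 to 0.25 and from -0.37 to 0.35.

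The genes picked furthest above or below their window had to pass the departure test without overlap between the lines at the window-adjusted level. Their departure p-values restate that choice and add no support. The gene furthest above its surroundings was PTPRN2, a receptor-type tyrosine phosphatase gene of dense-core vesicles (chr7:157539056-158587823, minus strand). It measured 0.244, 0.190 and 0 CPM in the parental libraries and 86.8, 81.1 and 83.5 CPM in MDA231-LN, from 7 and 4781 counts. It was almost silent in one line and well expressed in the other, with a log2 fold change of 9.18 and a departure from its window of 8.54 (edgeR adjusted p = 8.44e-22). PTPRN2 is a member only through MDA231-LN, where it is high, so it had to differ and its p adds nothing. The departure was 9.17 without parental replicate 1 and 7.91 without parental replicate 3. PIK3CG, the catalytic subunit gene of phosphoinositide 3-kinase gamma (chr7:106865278-106908980), measured 0.975, 1.77 and 0.803 CPM against 23.3, 24.6 and 21.6 CPM. It lay 3.61 above its window (edgeR adjusted p = 2.87e-14).

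SHH and PTN are ligand genes that the naming rule picked because they lay far above their window. SHH, which encodes the hedgehog ligand, measured 0, 1.58 and 0.963 CPM in the parental line and 9.58, 9.92 and 12.8 CPM in MDA231-LN. Its departure from the window was 3.01 (edgeR adjusted p = 1.12e-07), and ranged from 2.44 to 4.21 over the alternatives, with an adjusted p of up to 0.0351. It was 3.69 without parental replicate 2 and 4.21 with limma-voom. Its parental mean was under 1 CPM, so SHH too is a member only through MDA231-LN. PTN, which encodes the growth factor pleiotrophin (chr7:137227341-137343774), measured 2.44, 3.74 and 1.66 CPM against 38.3, 41.8 and 38.7 CPM. Its departure was 2.88 (edgeR adjusted p = 5.09e-14), and the naming rule required that the lines not overlap.

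The other 4 genes picked above their window were TSPAN33, NRCAM, PRKAR2B and CCDC136. TSPAN33, a tetraspanin gene, measured 1.52, 2.16 and 0.963 CPM against 18.9, 16.8 and 16.4 CPM, 2.67 above its window (edgeR adjusted p = 2.53e-11). NRCAM, a neuronal cell adhesion gene, rose from 3.49 ± 0.55 to 20.7 ± 3.06 CPM (SD, n = 3) and lay 1.87 above its window (edgeR adjusted p = 2.75e-10). PRKAR2B, a regulatory subunit gene of protein kinase A, rose from 8.09 ± 1.95 to 43.4 ± 2.44 CPM and lay 1.72 above (edgeR adjusted p = 9.84e-12). CCDC136, a coiled-coil gene, rose from 3.07 to 17.8 CPM and lay 1.70 above (edgeR adjusted p = 1.31e-09). These 8 genes also lay above the median of their own stretch, by 1.31 to 8.54. With 5-Mb windows the departure was 2.80 for PIK3CG, 1.06 for NRCAM and 0.91 for PRKAR2B.

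Of the genes picked below their window, most were also lower in MDA231-LN. AGFG2, an Arf GTPase-activating family gene (chr7:100539203-100568220), measured 44.3, 55.1 and 51.9 CPM in the parental line and 16.4, 15.5 and 15.4 CPM in MDA231-LN, a log2 fold change of -1.68 and a departure of -2.37 (edgeR adjusted p = 6.84e-17). Against its own stretch the departure was -1.62. CREB3L2, a transcription factor gene of the secretory pathway, measured 224, 224 and 239 CPM against 92.5, 92.0 and 92.6 CPM, a departure of -2.37 (edgeR adjusted p = 1.12e-21). The lines did not overlap for either gene. CREB3L2 lies in the distal stretch, whose median was 0.65.

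AASS, which encodes the first enzyme of lysine breakdown (chr7:122064583-122144308, minus strand), measured 113, 115 and 132 CPM against 42.9, 44.7 and 45.1 CPM, a departure of -2.28 (edgeR adjusted p = 1.84e-19). CPED1 fell from 30.6 ± 2.32 to 14.4 ± 1.20 CPM, a departure of -1.93 (edgeR adjusted p = 3.5e-14). Both genes were lower in every MDA231-LN library. Against their own stretch the departures were smaller, at -1.30 for AASS and -0.95 for CPED1.

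The remaining genes of this group changed less between the lines. TSC22D4, at -1.31 from its window and -0.56 from its stretch, fell by 0.62 and PRSS2, a trypsinogen gene with close copies that could share reads, by 0.67 on the log2 scale, both under edgeR. ATP6V0A4, a proton pump subunit gene, was at -0.34 and did not pass (edgeR adjusted p = 0.175), yet lay -1.40 from its window (edgeR adjusted p = 4.11e-06).

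**Figure D4:**
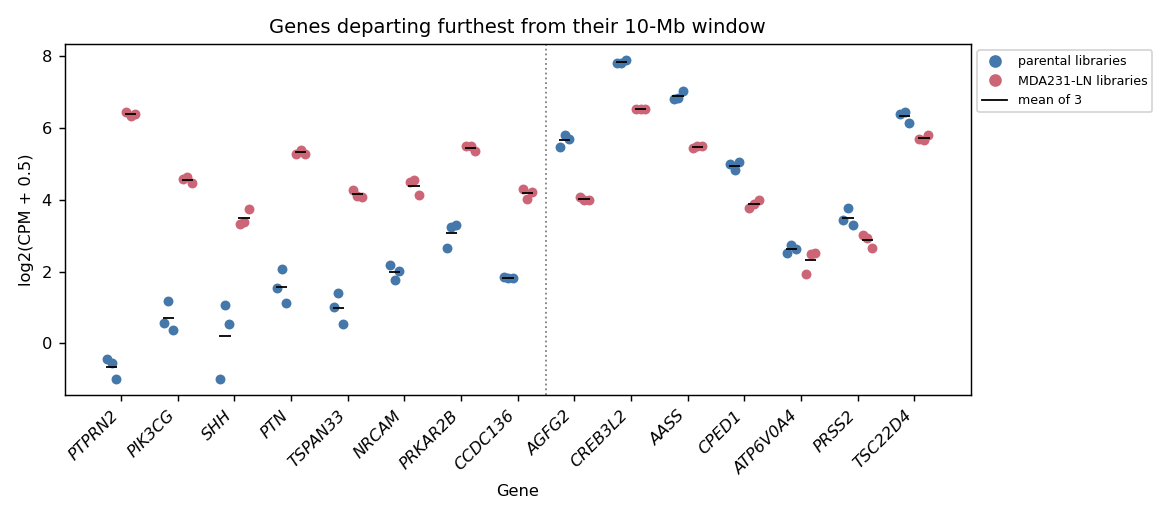
Level of 15 of the members that depart furthest from their 10-Mb window under the naming rule, as log2(CPM + 0.5); points are libraries (blue, parental; red, MDA231-LN), black lines are means of 3 libraries, and genes above their window stand left of the dotted line. PTPRN2 shows the widest gap between the lines, and ATP6V0A4 the narrowest.

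Receptors, ligands and signal transducers numbered 20 members, of which 12 were higher, 2 lower and 6 did not pass, with a median log2 fold change of 0.56. For this and the following lists, 65.3% of all members and 31.6% of all genes tested were higher. Lower were 9.7% of all members and 31.2% of all genes tested. The genes of a list lie in different stretches, so no trait of a role is read from its counts. MET, the hepatocyte growth factor receptor gene, measured 202, 212 and 224 CPM in the parental line and 210, 218 and 208 CPM in MDA231-LN. The lines overlapped, with a log2 fold change of -0.01 (edgeR adjusted p = 0.937). Its departure was -0.62 from the window but 0.14 from its own stretch. RHEB, an mTOR-activating GTPase gene, rose by 0.65, the level of its stretch. BRAF rose by 0.32 (edgeR adjusted p = 0.0101), a call lost without parental replicate 2, where the value was 0.22. GNB2, a G protein subunit gene, was at -0.04 and did not pass. GRM8, a glutamate receptor gene named after its values were seen, measured 10.1, 6.27 and 9.21 CPM against 0.102, 0.166 and 0.514 CPM, a log2 fold change of -4.98 (edgeR adjusted p = 5.11e-12). Its MDA231-LN mean was 0.261 CPM, so GRM8 is a member only through the parental line. It had to differ, and its p adds nothing.

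Matrix, membrane domain and cytoskeleton genes numbered 24, of which 10 were higher, 6 lower and 8 did not pass, with a median of 0.14. CAV1, the main caveolar coat gene, measured 639, 698 and 646 CPM against 731, 731 and 719 CPM. It was higher by 0.14 (edgeR adjusted p = 0.0215), a call lost on leaving out parental replicate 1 or 3 or MDA231-LN replicate 1 or 2, with values of 0.11 to 0.14. FLNC, a filamin gene, measured 236, 231 and 237 CPM against 601, 599 and 555 CPM, a rise of 1.32 (edgeR adjusted p = 2.58e-17). CALU, a calcium-binding protein gene of the secretory pathway, rose by 0.29 and lay -0.94 from the median of the second raised stretch. LAMB1, a laminin chain gene named after its values were seen, rose by 2.30.

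Chromatin and transcription regulators numbered 25, of which 17 were higher, 3 lower and 5 did not pass, with a median of 0.42. EZH2, the catalytic subunit gene of Polycomb repressive complex 2, measured 102, 102 and 92.2 CPM against 171, 159 and 164 CPM, a rise of 0.74 (edgeR adjusted p = 5.09e-11). That is 0.09 from its stretch median. SRRT was at -0.12 and did not pass. Zinc finger genes of the distal cluster numbered 11, of which 8 were higher, 0 lower and 3 did not pass under edgeR, with a median of 0.53. None of these 11 was lower at an unadjusted p under 0.05, by DESeq2 or by limma-voom. ZNF282 rose by 0.42, ZNF212 by 0.48 and ZNF777 by 0.53.

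Replication, repair and cell cycle genes numbered 13, of which 10 were higher, 1 lower and 2 did not pass, with a median of 0.57. Of these, 12 lay within 0.3 of their stretch median, beside 51.9% of all members. Such genes were 9 of 20, 12 of 24, 13 of 25 and 7 of 11 in the lists above. In the lists below they were 12 of 23, 11 of 26 and 0 of 4. MCM7, a subunit gene of the replicative helicase, lies in the proximal edge and measured 382, 406 and 388 CPM against 382, 395 and 394 CPM. It overlapped between the lines. CUL1, a ubiquitin ligase scaffold gene, rose by 0.87, and NCAPG2, a condensin subunit gene, by 0.55.

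Mitochondrial and metabolic enzymes numbered 23, of which 17 were higher, 2 lower and 4 did not pass, with a median of 0.83. NAMPT, the rate-limiting enzyme gene of NAD salvage, measured 264, 289 and 283 CPM against 586, 587 and 582 CPM, a rise of 1.07 (edgeR adjusted p = 1.57e-15). AKR1B1, an aldose reductase gene, measured 120, 142 and 121 CPM against 531, 475 and 520 CPM, a rise of 2.00 (edgeR adjusted p = 3.23e-19). Its neighbour AKR1B10 rose from 7 to 318 counts, and reads could be shared among these similar genes. DLD, a subunit gene of mitochondrial dehydrogenase complexes, rose by 0.81.

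Protein turnover, folding, transport and trafficking genes numbered 26, of which 16 were higher, 5 lower and 5 did not pass, with a median of 0.51. NUP205, a nuclear pore gene, rose by 0.40 and PDIA4, a disulfide isomerase gene, by 0.19. DNAJB6, a chaperone gene of the distal stretch, measured 332, 366 and 336 CPM against 341, 344 and 345 CPM and overlapped between the lines. Antiviral and immune genes numbered 4, of which 2 were higher and 2 lower. ZC3HAV1, an antiviral zinc finger gene, rose by 0.31, while TRIM56 fell by 0.42 and PARP12 by 0.29. The PARP12 call was lost with upper-quartile scaling, at -0.18. The 122 members in no list had a median of 0.77, with 83 higher, 5 lower and 34 that did not pass.

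**Figure D5:**
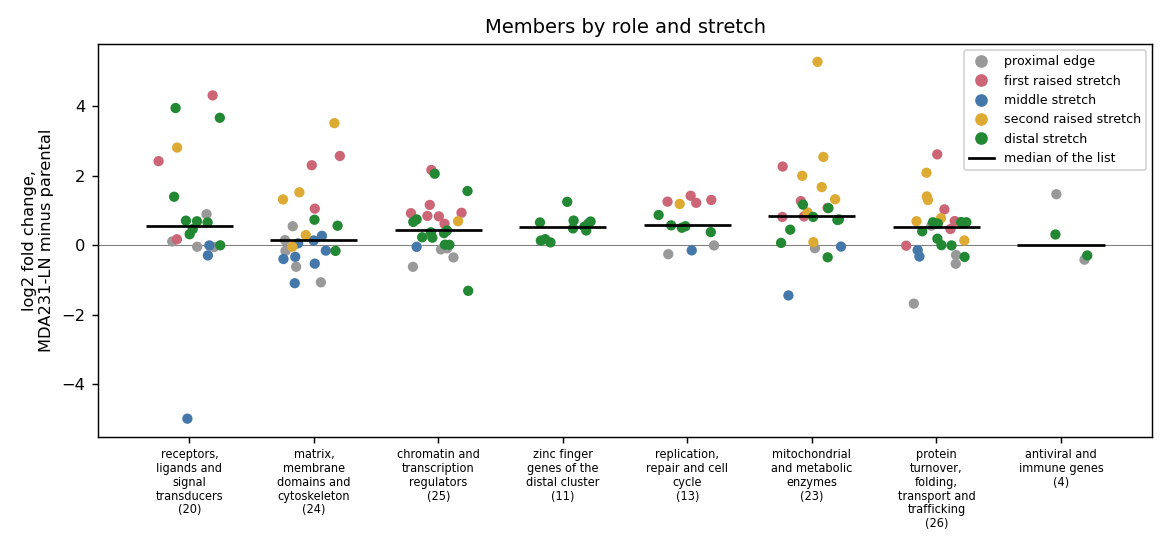
Log2 fold change of the members of each role list, with the number of members under its name; points are genes coloured by stretch and black lines are list medians. Within a list the genes of the 2 raised stretches lie mostly above those of the proximal edge and the middle stretch. This follows from the way the stretches were cut, on these same values.

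The T cell receptor beta locus, in the distal stretch, held strong changes in opposite directions. TRBC2, a constant segment, measured 0.853, 1.65 and 1.45 CPM in the parental libraries and 65.1, 59.2 and 62.8 CPM in MDA231-LN, from 67 and 3559 counts. TRBV10-3, a variable segment, measured 25.8, 22.6 and 24.9 CPM against 0.307, 0.665 and 0.925 CPM, from 1245 and 36 counts. The lines did not overlap for either segment, with log2 fold changes of 5.56 and -5.26 (edgeR adjusted p = 2.2e-21 and 2.95e-17). TRBV10-3 is a member only through the parental line, as its MDA231-LN mean was 0.633 CPM, so its p adds nothing. CD3D, CD3E and CD3G, which encode the chains that accompany the receptor on T cells, had 0 counts in all 6 libraries. CD247, the gene of another such chain, had 0 and 10 counts in the parental line and MDA231-LN, and TRAC, the constant segment of the alpha chain, had 240 and 267. TRBC1 had 6 and 33 counts. These segments were named after their values were seen.

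At the limits of the choice of members, the first genes inside the start limit were ZKSCAN1 (log2 fold change 0.08) and ZSCAN21 (0.04). The last outside it were CYP3A5 (0.43) and TRIM4 (-0.07). Just inside the level limit lay SPDYE6 (0.78) and SMKR1 (1.27). Just outside it lay WDR86 (1.86, mean 0.94 CPM) and ATP6V0E2 (1.12, mean 0.957 CPM).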

How the data were processed

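Raw counts per gene were deposited by the authors for 3 libraries of each line. Per the file headers they were made with featureCounts 2.0.1 on Ensembl annotation release 105, over whole gene bodies, without strand and without reads that touch more than 1 gene. Per the submitters' processing notes the aligner was STAR and the build GRCh38. Without strand, overlapping and antisense genes cannot be told apart, and for 26 members another gene covers over 50% of the exonic bases. Counts came to 16461578 to 19171017 per library.

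Samples were grouped by the cell line in the labels. The main test was the quasi-likelihood fit of edgeR 4.0.16 (R 4.3.3) on 14176 genes kept by filterByExpr, scaled by TMM and adjusted by Benjamini-Hochberg. CPM values use TMM-scaled library sizes. The common biological coefficient of variation was 0.0691. Departures used the same fit with an offset, in windows of at least 10 tested genes and otherwise the chromosome's median. The scripts were tested on simulated data. Members and lists were chosen with earlier results of these data known.

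Named genes were the 8 furthest above and below their window, at a mean of at least 5 CPM, protein coding and with a conventional symbol. They had to pass the departure test without overlap between the lines. Others were 3 per list, the pair on each side of each edge, those next to the limits, and MET, CAV1, EZH2 and BRAF. An item that this rule picks was left out of the text. The alternatives tried were RLE and upper-quartile scaling, other filters, DESeq2 1.42.0, limma-voom (limma 3.58.1), a replicate block, leaving out each library or the overlapped genes, a stricter threshold, other windows and other segmentations.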

Additional observations from a re-analysis of the deposited data

How the results depend on the processing

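Counts of members held within 1.5 times under every alternative run: 160 to 184 higher, 21 to 28 lower and 135 to 180 departing from their local shift. Leaving out each library gave 164 to 175 higher, 24 to 28 lower and 153 to 170 departing. The median of the members was 0.78 with upper-quartile scaling, 0.78 as a mean over genes and 0.62 at 5 CPM, and 0.64 to 0.68 on leaving out each library. The median at 30 to 60 Mb was -0.56 with upper-quartile scaling and -0.69 to -0.64 on leaving out each library. Upper-quartile scaling moved the median of all tested genes from 0.02 to 0.13, and turned the median of the proximal edge to 0.038. The edge at 101.3 Mb moved to 102.5 Mb with least squares, and that at 116.2 Mb to 116.3 Mb without overlapped genes. With 4 segments the third edge lay at 114.9 Mb, between FOXP2 and MDFIC, and there was no edge at 128.3 Mb, so the middle stretch was not separated. With 2 or 3 segments the edge at 101.3 Mb was the only one among the members.

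Departures of single genes depend on what is taken as the local shift. Of 950 comparisons over 56 named genes, 881 kept direction and call, 23 lost and 17 gained a call, and 16 reversed with a call on at least 1 side. In the other 13, over DLD, IFT22, RHEB, SPDYE6 and TES, the sign changed and neither value was called. Against the stretch median, reversed departures were GNB2 at 0.0174, MET at 0.14, CAV1 at 0.28, MCM7 at 0.0552, DLD at -0.26, CLDN15 at 0.21, CUX1 at -0.24, MDFIC at -0.23, SND1 at 0.0066, ZKSCAN1 at 0.14 and ZSCAN21 at 0.10. With 5-Mb windows CAV1 was at 0.0911, NAMPT at -0.44, DLD at -0.70 and MDFIC at -0.20, and with no filter RHEB was at -0.27. These windows and stretches differ by construction in which side of an edge they cover. None of the 16 genes furthest from their window reversed or lost its call. They were picked for passing that test with the largest departures, so this adds no support. Of 835 comparisons of log2 fold changes, 775 kept direction and call, 28 lost a call, 6 gained one and 0 reversed with a call on either side. In 26, over DNAJB6, FIS1, GNB2, MCM7, MET, TRIM4 and ZSCAN21, the sign changed between values that were not called, so no direction is read for these genes.

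Libraries of the same number showed no shared deviation (correlations of -0.005, -0.01 and -0.074, against -0.042 to 0.051 for other numbers). These values cannot exclude that same-numbered libraries were prepared together, which the labels do not state. With the replicate block, 171 members were higher, 26 lower and 171 departed, and the median was 0.67. Genes under a few CPM rest on few counts, and their values are less precise.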
